A study of Rattus norvegicus with 8 samples.

Results

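The TNF superfamily comprises secreted or membrane-bound trimeric ligands and the receptors they bind, and its members were examined here in rat liver during chemically induced hepatocarcinogenesis. Members were chosen by gene name: every probe whose name began with Tnfsf or Tnfrsf, or was Fas, Faslg, Lta, Ltb, Ltbr, Cd27, Cd40, Cd40lg or Cd70. This gave 46 probes for 38 gene names, of 45598 probes for 36181 genes or names on the array. No measured value entered the rule, but the family was taken up with earlier results of these data known, so the differences between the groups and their p-values are descriptions.

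The study compared livers of male Wistar rats given butyrate-containing structured lipids (STL), 1.65 g/kg body weight daily by gavage, with livers of controls given maltodextrin at 3.0 g/kg, a dose matched for calories. Both groups, of 4 rats each, went through the resistant hepatocyte protocol, in which chemically initiated hepatocytes are selected to form preneoplastic foci, starting 2 weeks after the treatment began, and both were killed at 8 weeks. There was therefore no liver without hepatocarcinogenesis and none without a gavaged supplement, and the age of the rats was not given in numbers. The labels do not say whether a sample held foci, surrounding tissue or both. Whole liver RNA mixes all cell types, so fewer cells of a type and less RNA per cell cannot be told apart in any value given here.

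A part of the receptors, those with a cytoplasmic death domain such as Fas, can recruit caspase-8 and trigger apoptosis. Most of the others bind TRAF adaptors and activate NF-kB and stress kinases. In liver the family is known for hepatocyte death, for the growth of progenitor and bile duct cells through Tnfrsf12a (Fn14, the receptor for Tnfsf12, also called TWEAK), and for the organisation of infiltrating lymphocytes through lymphotoxin and Cd40.

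Each array is 1 one-colour measurement of a liver. Values are the log2 processed signal minus the 75th percentile of that array, so 0 is the level of the 75th-percentile probe and a difference of 1 is a doubling. Probe levels cannot be set against each other, and comparisons between samples are within a probe or a fixed list of probes. The bright probes of a list weigh most in its summed level. The arrays were on 1 slide, their 75th percentiles lay between 304 (STL 7) and 605 (control 4) signal units, and 54.2% to 62.8% of probes were well above background. The control 1 and control 2 arrays were near-identical: their difference over repeated spots was 1.05 times the noise within an array, against 2.16 to 6.87 times for the other 27 pairs. They were counted as 1 sample, which left 3 control and 4 STL samples. Of the hepatocyte markers, which check the tissue, 8 of 8 were above background on all arrays. In STL livers 7 were higher, with means of 6.12 to 6.82 in controls against 6.65 to 6.98. Summed levels were 1611 to 2127 against 2123 to 3044, and Ttr, Serpina1, Alb and Apoa1, the brightest, weigh most in them. The direction depended on the scaling: after quantile normalization 3 were higher and 5 lower.

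Of the 46 family probes, 31 (27 genes) were well above background on at least 4 of the 8 arrays and were tested; 23 of them were above it on all 8. The filter ignores group, but 8 of these probes passed on 4 to 7 arrays, and 1 probe each of Cd40 and Tnfsf13b passed with 4 control arrays and 1 STL array. All 5 death receptor genes, 13 of 16 other receptor genes, the single soluble decoy receptor and 8 of 16 ligand genes were tested. The 11 genes that were not tested were Cd40lg, Cd70, Tnfrsf13c, Tnfrsf19, Tnfrsf8, Tnfsf11, Tnfsf14, Tnfsf15, Tnfsf18, Tnfsf4 and Tnfsf9. Of these, Tnfrsf8 and Tnfsf14 were above background on 1 control array each, Tnfsf15 on 1 STL array, and the others on 0 arrays. Most of them are ligands or receptors of activated lymphocytes.

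None of the 31 family probes passed the threshold of an adjusted p of 0.05 (limma, adjusted over the 26978 probes tested), where 1 probe of all those tested, 0.00371%, did. At an unadjusted p below 0.05 stood 5 family probes, or 16.1%, against 18.2% of all probes tested, so the share of the family was near the background. The count of 5 was 2 without control 3, without control 4 or without STL 8, and 10 with array weights. With STL lower there were 4 of them, or 12.9%, against 7.4% of all probes; the Tnfsf13b probe among these passed the filter through the controls. Of the family probes 16 were higher and 15 lower in STL livers, with a median difference of 0.03, beside 0.05 for all probes. The sign of the family median was not stable: it was -0.02 after median scaling, -0.05 after quantile normalization and 0.12 with another background correction. The values of all STL livers lay below all control samples for 2 family probes, against 5.71% of all probes, and above them for 1, against 10.5%.

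**Figure D1:**
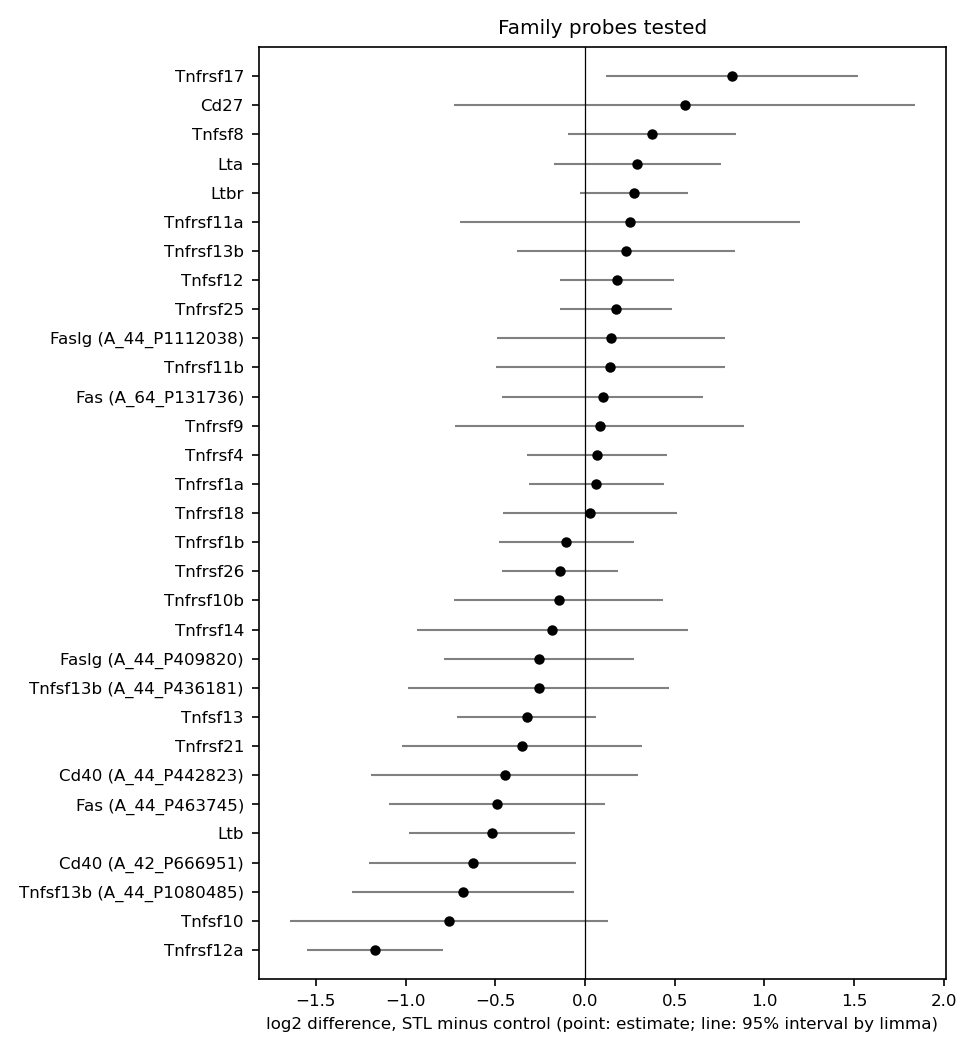
The log2 difference between STL and control livers (horizontal axis, STL minus control) is drawn for each of the 31 family probes tested, with the estimate as a point and its 95% interval by limma as a line. Tnfrsf12a lies lowest at -1.17, Tnfrsf17 highest at 0.82, and most intervals cross 0.

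Tnfrsf12a had the largest difference of the family. Its control values were 0.33 and 0.32 on the near-identical arrays 1 and 2, 0.51 in control 3 and 0.91 in control 4. In the STL livers they were -0.43, -0.55, -0.54 and -0.84. Every STL liver lay below every control, with a gap between the groups wider than the range within either. The difference was -1.17 (SE 0.17, 95% interval -1.55 to -0.79), so the STL level was 0.444 of the control level. The unadjusted p was 7.4e-05, the rank 18 among all probes tested, and the adjusted p 0.103, not past the threshold.

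The array carried the Tnfrsf12a probe, at rn4 chr10:12940627-12940686, as 10 spots, which gives a check of the measurement though not of the rats. The mean processed signal was 683, 584, 749 and 1134 units on control arrays 1 to 4 and 336, 335, 210 and 257 units on STL arrays 5 to 8. After scaling, the lowest control spot stood at 0.13 and the highest STL spot at -0.33, over 70 spot values, with 10 left out as flagged by the scanner software. All 8 spots that had a value on every array gave every STL array below every control array. Each slide column held 1 array of each group, and within the columns the differences were -0.77, -0.87, -1.05 and -1.75. The smallest of these came from the column of control 1 and the largest from that of control 4.

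**Figure D2:**
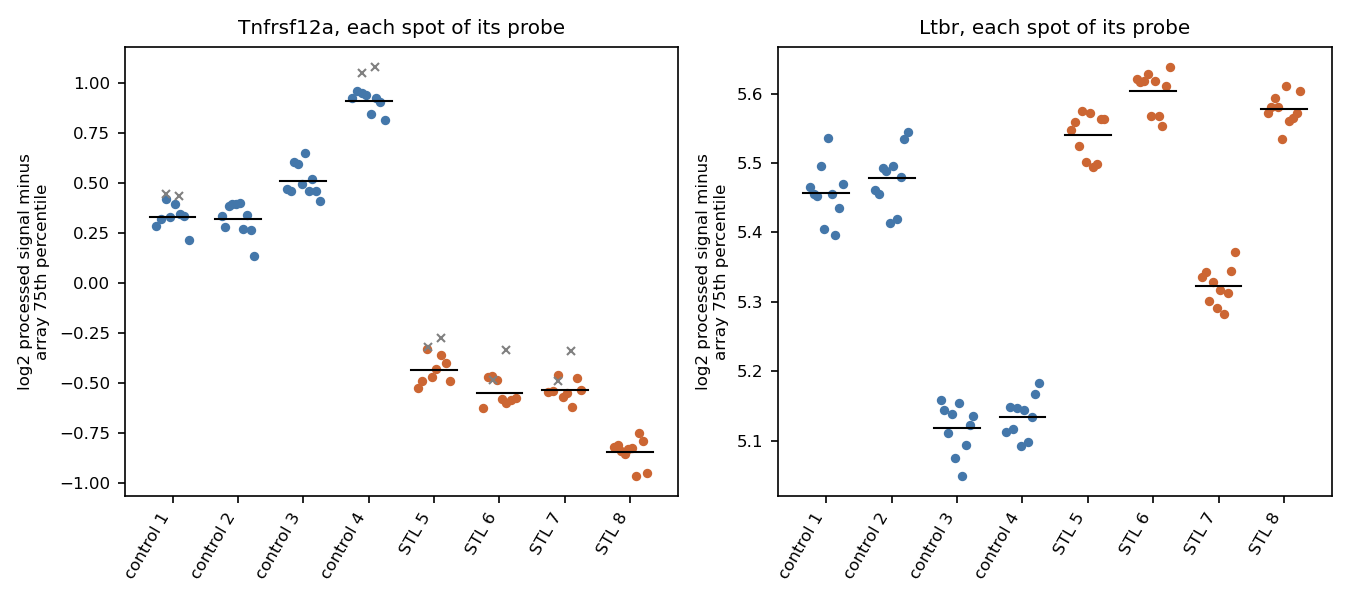
The normalised log2 signal (vertical axis) of each spot of the Tnfrsf12a probe (left) and the Ltbr probe (right) is shown per array, with control arrays in blue and STL arrays in orange; bars are array means of unflagged spots and grey crosses are flagged spots. The vertical scales differ between the panels. For Tnfrsf12a the unflagged control spots reach down to 0.13 and the STL spots up to -0.33, while for Ltbr control 1 and control 2 lie beside the STL arrays.

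The call on Tnfrsf12a depended on how samples were counted. With all 8 arrays as samples the difference was -1.11 with an adjusted p of 0.0428, but with the slide column as a block in that fit the adjusted p was 0.14, not past the threshold. With the near-identical control 1 and control 2 both left out the difference was -1.30 with an adjusted p of 0.0249. Estimated array weights gave -1.18 with an adjusted p of 0.0139, in a setting where 1844 of all probes passed. Over the 21 alternatives the difference stayed between -1.30 and -1.01 and the adjusted p between 0.0139 and 0.259.

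The sequences upstream of Tnfrsf12a, Tnfrsf17 and Ltb are shown because these had the smallest p-values of the family; they are the 250 bases before the RefSeq start site in the GRCr8 assembly, 5′ to 3′ on the strand of the gene, with motif matches in capitals. All 3 genes lie on the minus strand, Tnfrsf12a at chr10:13213649-13213898, Tnfrsf17 at chr10:4813773-4814022 and Ltb at chr20:3634055-3634304.
Tnfrsf12a: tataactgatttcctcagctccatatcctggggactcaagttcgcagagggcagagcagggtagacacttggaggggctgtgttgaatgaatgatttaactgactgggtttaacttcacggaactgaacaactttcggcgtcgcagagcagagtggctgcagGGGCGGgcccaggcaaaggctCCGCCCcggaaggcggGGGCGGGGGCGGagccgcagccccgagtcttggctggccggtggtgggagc
Tnfrsf17: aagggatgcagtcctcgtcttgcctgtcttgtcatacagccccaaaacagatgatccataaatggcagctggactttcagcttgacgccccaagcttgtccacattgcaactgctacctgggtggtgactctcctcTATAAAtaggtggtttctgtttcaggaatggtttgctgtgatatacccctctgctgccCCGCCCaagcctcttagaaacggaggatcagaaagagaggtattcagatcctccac
Ltb: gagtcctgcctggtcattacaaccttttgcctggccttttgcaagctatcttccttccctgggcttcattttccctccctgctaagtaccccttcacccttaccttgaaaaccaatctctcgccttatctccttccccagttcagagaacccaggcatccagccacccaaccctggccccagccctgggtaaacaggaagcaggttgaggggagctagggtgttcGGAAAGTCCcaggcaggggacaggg

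The motifs searched on both strands were the AP-1 site TGACTCA, the SP1 GC box GGGCGG, the TATA box TATAAA and the NF-kB form GGANNTTCC, found in 4.05%, 30.5%, 12.9% and 3.36% of 33469 windows of this length. The Tnfrsf12a window held the GC box 4 times, at -88 to -83, -51 to -46 and -45 to -40 from the start site and, on the other strand, at -67 to -62, with 60.8% G and C against a median of 51.2% over all windows. Tnfrsf17 had the TATA box at -114 to -109 and a GC box on the other strand at -56 to -51. Ltb had the NF-kB form on the other strand at -25 to -17, read on the gene's strand as GGAAAGTCC. The window of Tnfsf13b (chr16:86194500-86194749) held none of these letters. These matches describe the sequence and are no evidence of binding, and 28 of the 38 family genes had an entry in the RefSeq table.

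Tnfsf12 is the ligand of Tnfrsf12a and is made by many cell types. The controls stood at 3.07 (the mean of arrays 1 and 2), 3.15 and 3.29, and the STL livers at 3.47, 3.13, 3.60 and 3.20. The groups overlapped, and the difference was 0.18 (SE 0.14, 95% interval -0.14 to 0.50, adjusted p = 0.50).

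**Figure D3:**
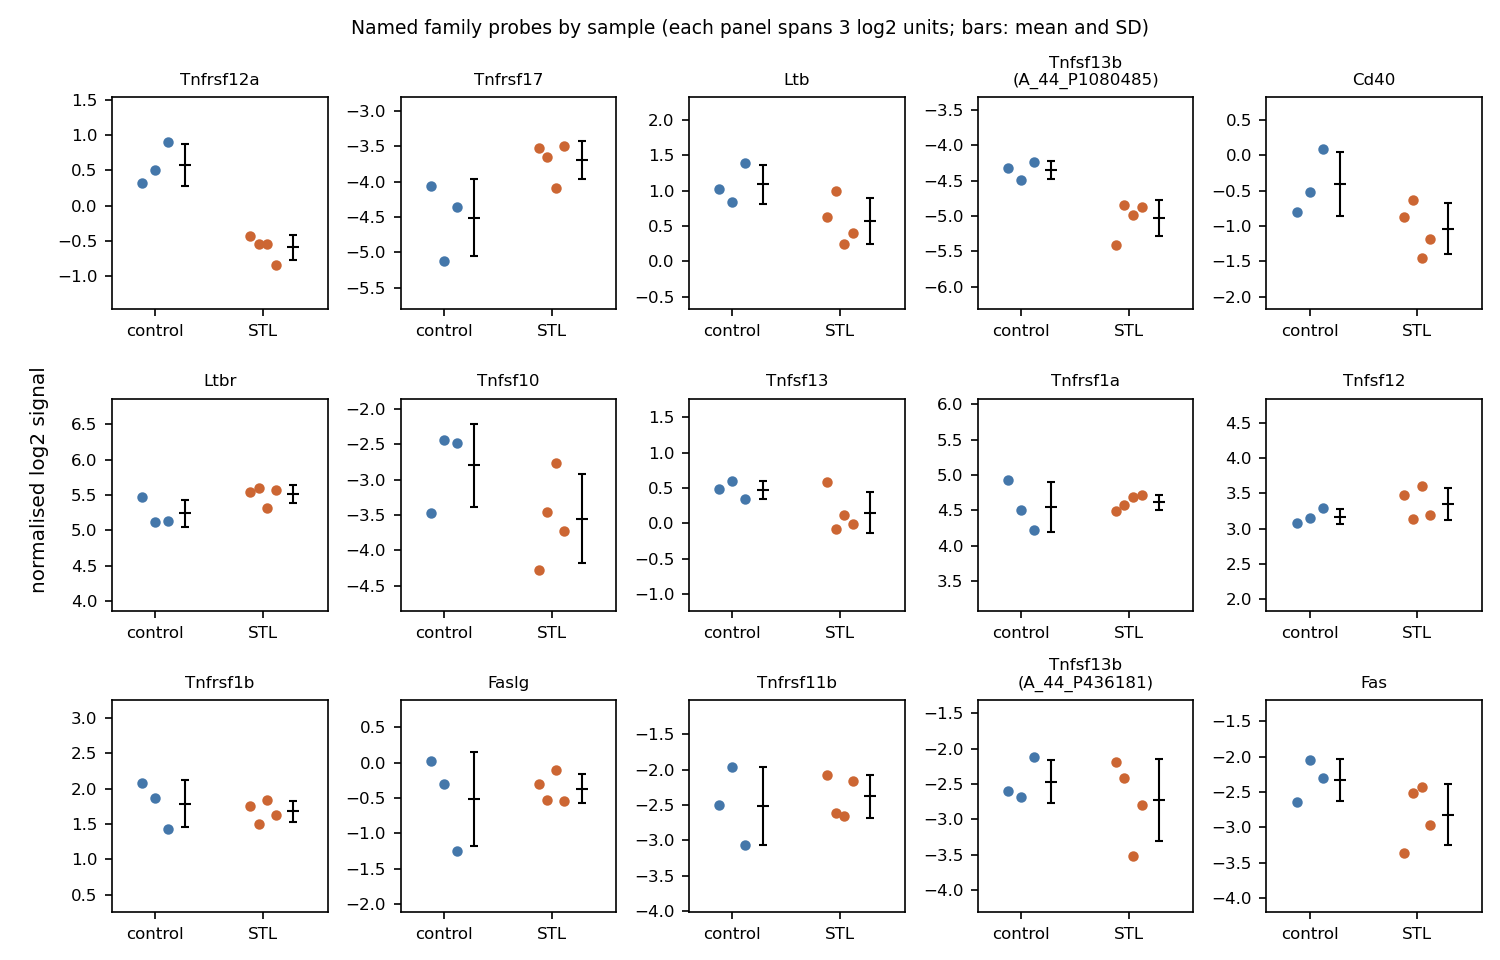
The normalised log2 signal of 15 family probes (vertical axis, each panel spanning 3 log2 units around its own level) is shown for the 3 control samples in blue, with arrays 1 and 2 averaged, and the 4 STL livers in orange; bars give the mean and SD. The groups are apart for Tnfrsf12a and for 1 of the Tnfsf13b probes and overlap in the other panels.

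Among the death receptors, 3 of 6 probes were higher and 3 lower, and 0 had an unadjusted p below 0.05. Tnfrsf1a, the main TNF receptor of hepatocytes, stood at 4.93, 4.51 and 4.23 in controls and at 4.49, 4.57, 4.69 and 4.72 in STL livers. The STL livers lay inside the control range, with a difference of 0.06 (95% interval -0.31 to 0.44) whose sign turned to -0.05 after quantile normalization and to -0.10 without control 4. Fas was read by a pair of probes that differed in sign. On the brighter, the controls were -2.64, -2.04 and -2.30 and the STL livers -3.37, -2.52, -2.43 and -2.96, a difference of -0.49 (SE 0.26, adjusted p = 0.346), and on the other the difference was 0.10. The first of these was -0.14 with another background correction and -0.31 without STL 5. Tnfrsf10b, a receptor for the ligand Tnfsf10, differed by -0.15 and was above background on only 4 arrays. Tnfrsf21 differed by -0.35. For Tnfrsf25, a receptor of lymphocytes, the groups were apart with STL higher, -2.16, -2.15 and -2.08 against -1.99, -2.05, -1.98 and -1.82, but the difference was 0.17 with an adjusted p of 0.511. The 2 arrays averaged into the first control value read -1.89 and -2.44, so with all 8 arrays this separation was absent.

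The ligands of the death receptors were likewise below the threshold. Tnfsf10 (TRAIL), which triggers apoptosis through death receptors, stood at -3.47, -2.44 and -2.48 in controls and at -4.27, -3.46, -2.76 and -3.73 in STL livers. The difference was -0.76 (SE 0.39, 95% interval -1.65 to 0.13, adjusted p = 0.327), the groups overlapped, and with another background correction it was -0.17. Faslg, the ligand of Fas on cytotoxic lymphocytes, stood on its brighter probe at 0.02, -0.31 and -1.26 in controls and at -0.30, -0.53, -0.11 and -0.55 in STL livers. Control 4 was the lowest sample; the difference was 0.15, it turned to -0.22 without control 4, and the second probe gave -0.26. Tnf itself, which the name rule did not cover, differed by -0.32 (SE 0.27, adjusted p = 0.535).

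In the lymphotoxin branch the ligand Ltb was lower, and the ligand Lta and the receptor Ltbr were higher, none past the threshold. Ltb, the membrane-bound chain that joins Lta to engage Ltbr, stood at 1.02, 0.84 and 1.40 in controls and at 0.63, 1.00, 0.24 and 0.40 in STL livers. Of the STL livers, STL 6 lay inside the control range, and the difference was -0.52 (SE 0.20, 95% interval -0.98 to -0.06, adjusted p = 0.241). Ltbr stood at 5.47, 5.12 and 5.13 in controls and at 5.54, 5.60, 5.32 and 5.58 in STL livers, a difference of 0.27 (SE 0.13, adjusted p = 0.310). Its 10 spots placed control 1 and control 2 at 5.46 and 5.48, above STL 7. Lta differed by 0.29, and the level of control 4 (-3.21) was the lowest of its samples. Without control 4 the Ltb difference was -0.36, and after quantile normalization the Ltbr difference was 0.13.

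Cd40, a costimulatory receptor of B cells and macrophages, had its brighter probe at -0.80, -0.52 and 0.09 in controls and at -0.87, -0.64, -1.45 and -1.19 in STL livers. STL 6 overlapped with the controls, and the difference was -0.63 (SE 0.25, 95% interval -1.20 to -0.05, adjusted p = 0.251). It was -0.38 without control 4. The second probe gave -0.45, was above background on 1 STL array, and gave 0.10 with another background correction. Tnfrsf1b, the TNF receptor of immune cells, stood at 2.08, 1.87 and 1.42 in controls and at 1.76, 1.51, 1.84 and 1.62 in STL livers. The STL livers again lay inside the control range, and the difference was -0.11 (95% interval -0.48 to 0.27).

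In the B cell survival axis, Tnfsf13b (BAFF) and Tnfsf13 (APRIL) bind Tnfrsf17 (BCMA), Tnfrsf13b (TACI) and, for Tnfsf13b, Tnfrsf13c. Of these 5 genes 4 were above the filter. Signal was low for Tnfrsf17, for Tnfrsf13b and for the dimmer of the Tnfsf13b probes. Tnfrsf17, a receptor of plasma cells, stood at -4.06, -5.12 and -4.35 in controls and at -3.53, -3.65, -4.09 and -3.50 in STL livers. STL 7 lay just below the highest control, and the difference was 0.82 (SE 0.31, 95% interval 0.12 to 1.52, adjusted p = 0.23). This probe was above background on 3 arrays of each group, and its value varied with the setting. It was 0.44 with another background correction, 0.51 without control 3 (adjusted p = 0.483) and 1.25 with array weights (adjusted p = 0.0414).

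Tnfsf13b was read by a pair of probes that gave different pictures. The dimmer one stood at -4.32, -4.49 and -4.24 in controls and at -5.41, -4.85, -4.98 and -4.88 in STL livers, with the groups apart. It was above background on 4 control arrays and 1 STL array, so the STL values are close to what the array can measure, and the difference was -0.68 (SE 0.27, adjusted p = 0.249). The brighter probe, above background on all arrays, stood at -2.60, -2.68 and -2.11 in controls and at -2.18, -2.41, -3.52 and -2.79 in STL livers, a difference of -0.26 (adjusted p = 0.679). With another background correction both differences turned in sign, to 0.09 and 0.05.

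Tnfsf13 stood at 0.49, 0.60 and 0.34 in controls and at 0.58, -0.07, 0.11 and -0.01 in STL livers. STL 5 lay within the controls and the other STL livers below them, with a difference of -0.32 (SE 0.17, adjusted p = 0.335). Tnfrsf13b differed by 0.23 on a probe above background on only 2 arrays of each group, and its other probe was at background on all arrays. Tnfrsf13c was likewise at background on all arrays. The files place the probes of Tnfsf13 and Tnfsf12 next to each other, at rn4 chr10:56500182-56500241 and chr10:56503800-56503859, yet the differences had opposite signs.

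Tnfrsf11b (osteoprotegerin), the soluble decoy that captures Tnfsf11 and Tnfsf10, stood at -2.50, -1.97 and -3.07 in controls and at -2.07, -2.61, -2.65 and -2.15 in STL livers. Its STL livers lay inside the control range, and the difference was 0.14 (95% interval -0.50 to 0.78); it was -0.15 with array weights. Tnfrsf11a, the signalling receptor for Tnfsf11, differed by 0.25 with a wide interval of -0.70 to 1.20.

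The remaining tested members were receptors and a ligand, most of them of lymphocytes. Cd27, a costimulatory receptor, differed by 0.56 but with an SE of 0.56, since STL livers spread from -5.41 to -3.12. Its probe was above background on only 2 arrays of each group, and a second Cd27 probe on 0 arrays. Tnfsf8, the ligand of Tnfrsf8, differed by 0.37 and Tnfrsf9 (4-1BB) by 0.08. Tnfrsf4 (OX40) differed by 0.07 and Tnfrsf18 (GITR) by 0.03. Tnfrsf14, which binds lymphotoxin and Tnfsf14, differed by -0.18 and Tnfrsf26 by -0.14. All of these had an adjusted p of at least 0.359 and overlapping groups.

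Genes that act with the family were described from fixed lists, for which the brightest probe stood for each gene. None of them had an adjusted p below 0.05. Of 5 superfamily members that have other names, 3 were higher and 2 lower; Ngfr was not above background. Of 20 adaptors, kinases and other genes that act at or downstream of the receptors, 8 were higher and 12 lower, with a median of -0.07. Those with an unadjusted p below 0.05 made up 20% of this list, near the 18.2% of all probes: Map3k5 (0.75), a stress kinase, Rnf31 (-0.34), a linear ubiquitin ligase, Ripk3 (-0.36), a necroptosis kinase, and Fadd (-0.46), the adaptor of death receptors. Of 8 genes of the death arm, 3 were higher and 5 lower with a median of -0.07; Xiap, a caspase inhibitor, differed by 0.51 (adjusted p = 0.181) and Casp8, the initiator caspase, by -0.32 (adjusted p = 0.252).

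In the NF-kB list, which held subunits, inhibitors and feedback genes downstream of many other receptors too, 9 of 13 genes were lower in STL livers and 4 higher, with a median of -0.19. Those with an unadjusted p below 0.05 numbered 5, each lower, or 38.5% of the list against 7.4% of all probes with STL lower; with another background correction they numbered 3. Relb, a subunit of the non-canonical pathway that Ltbr, Cd40 and Tnfrsf12a engage, stood at 1.23, 1.32 and 1.97 in controls and at 0.30, 0.96, 0.90 and 0.66 in STL livers, a difference of -0.80 (SE 0.22, adjusted p = 0.187). Tnfaip3 (A20), a feedback inhibitor, differed by -0.71 (adjusted p = 0.193). Nfkb1 differed by -0.45 (adjusted p = 0.188) and Nfkb2 by -0.40 (adjusted p = 0.205). The groups were apart with STL lower for 7 of the 13 genes, beside 5.71% of all probes. The counts of 9 lower and 4 higher stayed under median scaling, quantile normalization and the other background correction. Over the alternatives Relb lay between -0.94 and -0.57 and its adjusted p between 0.0459 (array weights) and 0.38 (without STL 8). Tnfaip3 lay between -0.83 and -0.26, the latter with another background correction, and its adjusted p between 0.0429 (array weights) and 0.388 (without control 3).

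The mean of the 13 NF-kB genes was 0.91, 0.90 and 0.96 in the controls and between 0.64 and 0.79 in STL livers, so the groups did not overlap in this mean. Their summed levels did overlap, at 37.38 to 39.311 in controls against 36.393 to 39.999 in STL livers. The separation thus held for the log2 mean and not for the sum, in which the bright probes weigh most. This list was chosen with earlier results of these data known, and the separation of its mean is a description.

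Markers of other cell types differed between the same samples as Tnfrsf12a. The mean of 6 cholangiocyte (bile duct) markers was -1.04, -1.20 and 0.11 in the controls and between -2.43 and -1.12 in STL livers, with 5 of 6 genes lower and summed levels of 4.61 to 10.4 against 2.22 to 5.28. Control 3, at -1.20, lay below STL 6 here, whereas for Tnfrsf12a it lay above all STL livers; control 4 was the highest and STL 8 the lowest sample for both. Of these markers, Krt19 (a bile duct keratin) differed by -1.48 (adjusted p = 0.187). The mean of 7 stellate cell markers was 1.40, 1.65 and 2.19 in controls and 0.99 to 1.41 in STL livers. The means overlapped, since STL 6 lay just above the sample of control arrays 1 and 2. Of the 7 genes 6 were lower, with summed levels of 45.0 to 93.1 against 28.5 to 41.9. The collagen genes weigh most in the sum and differed by -1.39 to -0.75, while Lrat differed by -0.0008 and Acta2 by 0.05. The part of bile duct and stellate cells in the Tnfrsf12a values was not tested.

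All 6 cell division markers were lower in STL livers, with a median of -1.42. Each had an unadjusted p below 0.05 (limma), beside 7.4% of all probes with STL lower. Their adjusted p-values lay between 0.184 and 0.264. The groups were apart for 2 of them, beside 5.71% of all probes. The controls differed among themselves. The mean of the 6 genes reached 0.82 and 0.80 in controls 3 and 4, while the sample of arrays 1 and 2 stood at -1.21, inside the STL range of -1.64 to -0.996; summed levels were 3.98 to 12.0 against 3.18 to 4.11. For Tnfrsf12a the sample of arrays 1 and 2 stood at 0.33, above all STL livers, and the part of dividing cells in its values was not tested.

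For the lymphocyte members the values of the immune markers stand beside them. All 4 tested NK cell markers were higher in STL livers, with means of -1.40, -1.75 and -2.31 in controls against -1.48 to -0.81. Summed levels were 1.15 to 2.25 against 2.01 to 3.27. Both the means and the sums overlapped, and Ncr1 was at background. Of the B cell markers 3 of 4 were higher, with means of -3.26 to -2.47 against -2.76 to -2.45, which overlapped, summed levels of 1.51 to 2.43 against 2.34 to 3.46, and Ms4a1 at background. The brightest of them, Pax5, went from 0.47 to 1.13 in controls and from 1.06 to 1.72 in STL livers and weighs most in the sum. T cell markers had 4 of 6 higher, summed levels of 13.4 to 18.0 against 13.3 to 19.3, and Cd3e, Cd2 and Cd5 at background. This sum is dominated by Cd4, the brightest of these probes, which differed by 0.06, so it says little about the other T cell markers. Macrophage markers had 7 of 10 lower, with overlapping summed levels of 131 to 160.2 against 117 to 163. All 3 tested granulocyte and mast cell markers were lower, with means of -1.71 to -1.08 against -3.56 to -2.01. Summed levels were 0.982 to 2.16 against 0.469 to 1.26, and Mpo was at background. Cpa3, which differed by -2.34, was above background on only 5 arrays. Tpsab1, above background on 3 arrays and not tested, went the other way. Its mean was -5.25 in controls and -3.76 in STL livers, with STL 8 at -0.47. Endothelial markers had 3 of 5 higher, with means of 1.80 to 1.89 against 1.69 to 2.13, which overlapped, and summed levels of 37.4 to 56.1 against 54.6 to 78.9. The sum is dominated by Kdr, the brightest probe, which differed by 0.60 (adjusted p = 0.215). The part of any of these cells in the family values was not tested.

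**Figure D4:**
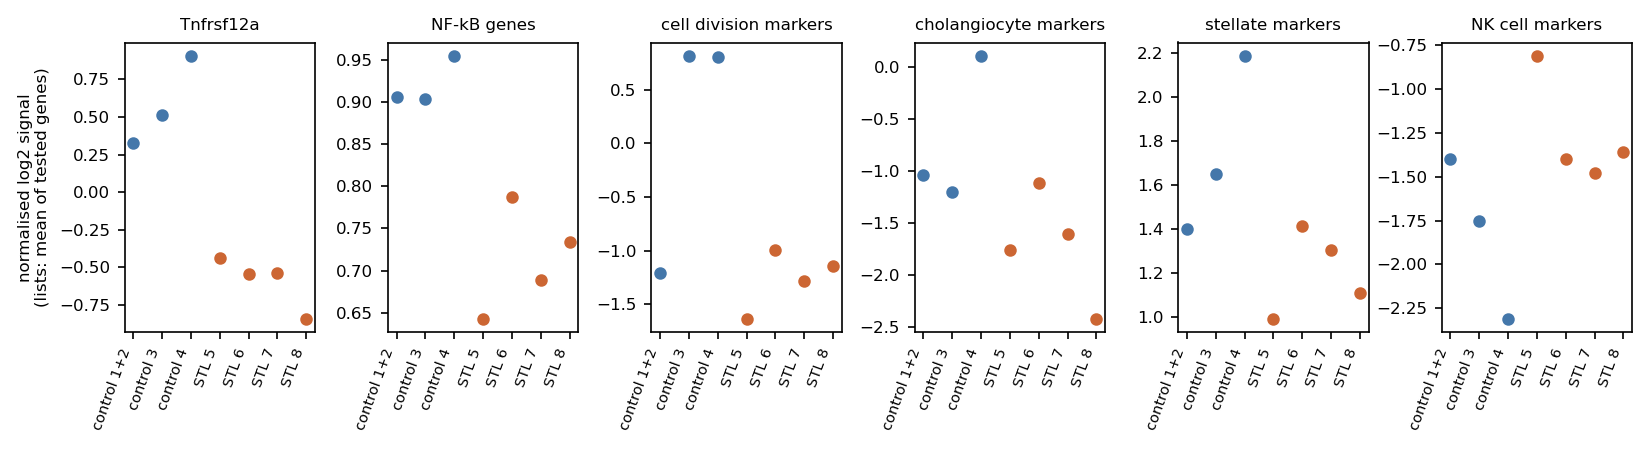
Normalised log2 signal (vertical axis) by sample for Tnfrsf12a and, as the mean of the tested genes of each list, for NF-kB genes and markers of dividing cells, cholangiocytes, stellate cells and NK cells; controls are blue, STL livers orange, and the vertical scale differs between panels. The controls lie above the STL livers for Tnfrsf12a and the NF-kB genes, whereas for cell division markers the sample of control arrays 1 and 2, at -1.21, lies among the STL livers.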

How the data were processed

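Total liver RNA was labelled with Cy3 and hybridised to one-colour Agilent arrays, per the labels. The deposited scanner files hold the intensity of each spot, made with Agilent Feature Extraction 11.5.1.1 per the file headers and 10.7 per the submitters' processing notes; probe positions are those of the headers' rn4 build. The deposited series table holds the same intensity values scaled per array, with 6 of its 8 columns exchanged within their group relative to the labels and 0 between groups. It was used only as an alternative.

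Flagged spots were left out, the other spots of a probe were averaged, and values were expressed as log2 minus each array's 75th percentile of the deposited processed signal over non-control probes. Probes well above background (on at least 0.5 of their spots) on at least 4 of 8 arrays were tested with limma 3.58.1 in R 4.3.3 (lmFit, eBayes with an intensity trend, two-sided, Benjamini-Hochberg over all 26978, threshold 0.05), a fit tested on simulated data. Control 1 and control 2 were averaged. RefSeq accessions named the probes where possible (36 of the 46 family probes), otherwise symbols or the names in the files. Precision is limited by the number of arrays.

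The members, the lists and the rule for naming were chosen with earlier results of these data known. Values in every sample are given for the 8 family probes with the smallest p and for the brightest probe of 12 set genes; the other members are given by their differences, with sample values where groups were apart, and lists by counts with up to 4 genes each. Lta, Cd27 and Tnfrsf25 samples, Tnf, Krt19, Pax5, Kdr and the gene lists' sample values were singled out after their values were seen. So were Cd4, Cpa3, Tpsab1, Lrat, Acta2, the collagen genes and the brightest hepatocyte markers. Alternatives covered scaling, background, filter, samples, block, weights, trend, probe choice, flags, the series table and leaving out arrays.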

Additional observations from a re-analysis of the deposited data

How the results depend on the processing

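Of all probes tested, 1 passed the threshold; with 8 arrays as samples 30 did (19 higher, 11 lower), with the slide column as a block 2, with array weights 1844 (1067 higher, 777 lower), 30 with the series table, and without control 1 and control 2 223 (76 higher, 147 lower). Leaving out 1 array gave 1 to 54, with 3 without control 3 and 54 without STL 6. Of the family probes 0 passed; 1 did with 8 arrays, the series table or without control 1 and control 2, and 2 (Tnfrsf12a, Tnfrsf17) with array weights, while leaving out 1 array gave 0. Tnfrsf12a was -1.11 with 8 arrays, -1.18 with array weights, -1.10 with the series table (adjusted p = 0.0454) and -1.30 without control 1 and control 2. Signs turned for Tnfrsf1a (-0.049 after quantile normalization, -0.030 with 8 arrays, with or without the block and with the series table, -0.099 to 0.11 without 1 array, lowest without control 4), both Tnfsf13b probes (0.087 and 0.049 with normexp, the brighter also -0.44 to 0.0049 without 1 array, highest without STL 7), Faslg (-0.092 with array weights, -0.22 to 0.25 without 1 array, lowest without control 4), Tnfrsf11b (-0.15 with array weights, -0.14 to 0.41 without 1 array, lowest without control 4) and Tnfrsf1b (0.038 without control 1 and control 2). The causes were not tested. Of calls with an unadjusted p below 0.05, 59.4% were higher, against 44.0% with median scaling, 50.8% with quantile normalization and 75.7% with normexp. No paired analysis was possible because the control arrays are numbered 1 to 4 and the STL arrays 5 to 8, so the groups share no replicate number; the slide column, an array position and not a pairing of rats, was the only block fitted (Tnfrsf12a -1.11, adjusted p = 0.14). Probes near background, such as Tnfrsf17 and the dimmer Tnfsf13b probe, are limited by signal. With 3 against 4 samples the limma p-values rest on few rats.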
